A study of Homo sapiens with 6 samples.

Results

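The genes described here are 48 genes of human chromosome 5, 12 on its short arm (5p) and 36 on its long arm (5q), followed in HSC-3 cells labelled as overexpressing trypsin-2, a label that the signals of its gene PRSS2 went against. They were picked from a list of names to cover both arms with genes of unlike function, after results of these same arrays were known. A gene was read on its brightest probe set by the mean of 6 arrays. Of the 48 genes, 46 had a probe set annotated to that gene alone, and 44 of those were bright enough to be tested, among 12151 genes tested in all. TAF9 and RASA1 had no such probe set and are not analysed here, and DAB2 and CYFIP2 were below the brightness filter. Since the members were chosen with differences between these arrays in view, their differences are given as a description and support nothing by themselves.

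HSC-3 is an established line of human tongue carcinoma cells of squamous type, and trypsin-2 is the serine protease made from PRSS2. The TAT-2 group is 3 arrays of HSC-3 labelled as overexpressing trypsin-2, and the vector group is 3 arrays of HSC-3 with a control vector and, per the labels, no trypsin-2 expression. Both were cultured for 48 h in the same serum-containing medium with hydrocortisone, and 2 µg of total RNA was labelled per array. The labels name no promoter, clone or pool, and do not say whether replicates came from separate cultures. The p-values hold only the spread among these 6 arrays, and that spread may be technical.

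Squamous markers were bright on all arrays: 7 of 10 had a probe set of their own and all 7 were above the filter, with a summed signal of 23455 to 26969 on TAT-2 arrays and 20507 to 28833 on vector arrays. Fibroblast markers summed to 131 to 137 on TAT-2 arrays and 112 to 136 on vector arrays, with 2 of 6 above the filter. Leukocyte markers summed to 17.1 to 21.6 on TAT-2 arrays and 22.5 to 27.0 on vector arrays, with 0 above the filter of 3 that had a probe set. Endothelial markers summed to 41.6 to 55.8 on TAT-2 arrays and 41.2 to 49.4 on vector arrays, with 1 of 4 above the filter. PRSS2 went against the labels: its brighter tested probe set gave 20.4, 13.8 and 14.6 on the arrays labelled TAT-2 and 19.6, 80.8 and 83.2 on those labelled vector. Its other tested probe set was lower on every array labelled TAT-2, at 19.9, 17.9 and 19.5, against 22.6, 38.0 and 54.5 on those labelled vector. Both end in _x_at and can read related sequences. Every direction below therefore rests on the labels. The replicate 1 arrays of both groups lay apart from the rest on principal component 1, which held 45.6% of the variance, so several differences are also given by replicate number or without replicate 1. Without replicate 1 of both groups the sign of the difference turned in NPM1, RAD1, NIPBL, DROSHA, TRIO, LMNB1 and MATR3.

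Chromosome 5 has a short arm and a much longer long arm on either side of its centromere. The members share this chromosome and not a pathway. Among them are the chaperones CCT5, HSPA4, HSPA9 and CANX, genes of the DNA damage response such as RAD1, RAD17 and RAD50, binders of RNA such as NPM1 and HNRNPH1, and the tumour suppressor APC. In myeloid neoplasms that lose part of 5q, CSNK1A1 and HSPA9 are among the genes lost. The arrays read RNA and hold no measure of gene copy number.

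The genes of 5q were slightly higher on TAT-2 arrays and those of 5p were closer to no difference. On the scale of log2(signal + 16), used for all differences here, the 33 tested 5q members had a median difference, TAT-2 minus vector, of 0.08, and the 11 tested 5p members one of 0.03, while the median of all 12151 tested genes was -0.002. In RNA of whole cultures, a change in the share of cells that express a gene and a change in RNA per cell cannot be told apart. By replicate number the 5q members' median was 0.04, 0.03 and 0.13 in replicates 1, 2 and 3, and that of the 5p members was -0.01, 0.01 and 0.13. In replicate 3 the 2 arms had the same median, so the members alone do not set the arms apart in every number. Counted by gene, 22 of the 33 5q members and 9 of the 11 5p members were above 0, beside 49.5% of all tested genes. With DAB2 and CYFIP2 included the medians were 0.03 for 12 5p members and 0.08 for 34 5q members. The median of the 5p members turned to -0.003 without vector replicate 3. Without replicate 1 of both groups it was 0.06 on each arm.

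**Figure D1:**
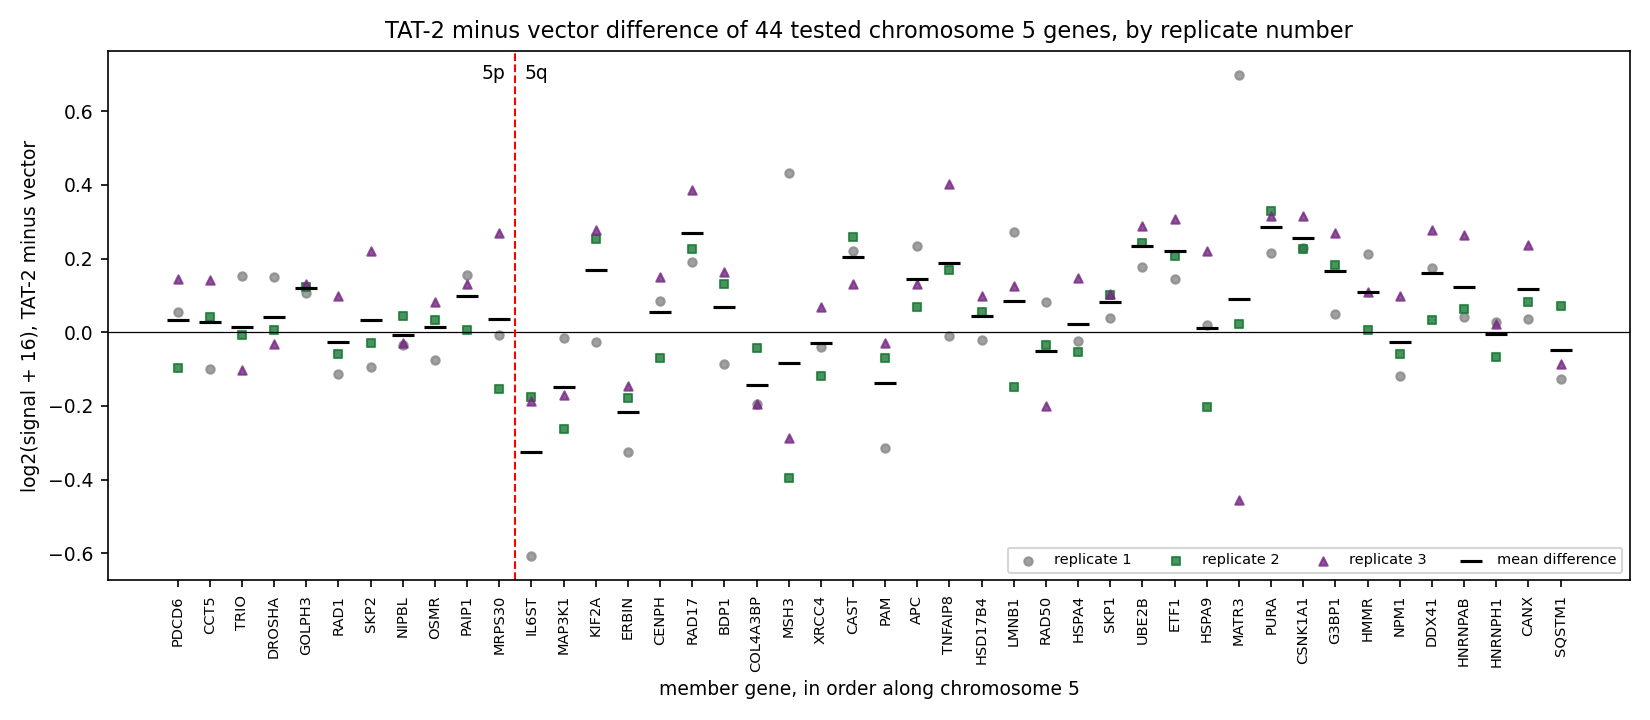
The TAT-2 minus vector difference, in log2(signal + 16), of the 44 tested members in their order along chromosome 5, with a symbol for each replicate number and a bar for the mean. The 5p members lie between -0.03 and 0.12, and the 5q members spread from -0.32 for IL6ST to 0.29 for PURA.

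The 5q members, which are more numerous, covered a wider range. Differences of the 5p members ran from -0.03 to 0.12 and those of the 5q members from -0.32 to 0.29. On 5q, 6 members were at 0.2 or more and 2 at -0.2 or less, and on 5p there were 0 of either. The SD of a member's difference over the 3 replicate numbers had a median of 0.11 on both arms. The difference was larger than that SD for 17 of the 33 5q members and for 2 of the 11 5p members. The counts by size and by SD were not taken over all tested genes, so no share stands beside them. Tested members were also brighter, with a median signal of 615 against 143 for all tested genes. All 3 numbers gave a positive difference for 15 of the 44 members and a negative one for 5, beside 21.4% and 21.1% of all tested genes.

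In 6 members, all on 5q, the signals of the groups did not overlap: PURA, CSNK1A1, ETF1, SKP1 and DDX41 were higher on all TAT-2 arrays and IL6ST was lower. Over all tested genes 7.87% were higher without overlap and 7.83% lower. limma called 0 of the 44 members, where it called 0.0576% of all tested genes. At an unadjusted p under 0.05 there were 4 members, beside 9.38% of all tested genes. With the replicate number as a block limma called 2 members, PURA and CSNK1A1, both higher, beside 6.96% of all tested genes and 3.5% called higher. Without the intensity trend of the variance the blocked limma fit called 0 members, and 0 of all 12151 tested genes. At an unadjusted p under 0.05 that fit had 5 members, beside 2042 of all 12151.

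PURA, which binds single-stranded nucleic acids rich in purines, lies at chr5:140114109-140125619 (GRCh38.p14, as are all positions here, from the RefSeq gene table and not from the arrays). Its signals were 589, 633 and 676 on TAT-2 arrays and 505, 501 and 540 on vector arrays. The lowest TAT-2 array was above the highest vector array. The mean was 633 ± 43.1 on TAT-2 arrays and 515 ± 21.6 on vector arrays (SD, n = 3 each), a log2 difference of 0.29 ± 0.10 (SE), or 1.22-fold. The limma adjusted p was 0.50 by group alone and 0.0330 when the replicate block was added. Both other tested probe sets of PURA had the same sign.

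CSNK1A1, the casein kinase that primes beta-catenin for destruction, lies at chr5:149492982-149551439. It gave 2543, 2679 and 2965 on TAT-2 arrays and 2168, 2289 and 2380 on vector arrays. No vector array reached the lowest TAT-2 array. CSNK1A1 averaged 2729 ± 216 on TAT-2 arrays and 2279 ± 106 on vector arrays (SD, n = 3 each). The log2 difference was 0.26 ± 0.09 (SE) with a limma adjusted p of 0.487, and 0.0393 with the block. This probe set ends in _x_at and can read related sequences. Of 11 other tested probe sets 8 had the same sign, and with probe sets of shared sequence left out the difference was 0.11 (limma adjusted p = 0.905, and 0.485 with the block).

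IL6ST, which encodes gp130, the signalling subunit shared by receptors of the interleukin-6 family, lies at chr5:55935095-55994963. Its signals were 883, 1143 and 1150 on TAT-2 arrays and 1354, 1295 and 1310 on vector arrays. TAT-2 replicate 1 was the lowest array, and the other TAT-2 arrays were also below every vector array. Means of 1059 ± 152 on TAT-2 arrays and 1320 ± 30.9 on vector arrays (SD, n = 3 each) gave the lowest difference among the members, -0.32 ± 0.12 (log2, SE), with a limma adjusted p of 0.523, and 0.0550 with the block. Without replicate 1 of both groups it was -0.18. All 4 other tested probe sets had the same sign. OSMR on 5p, which pairs with gp130 in a receptor of oncostatin M, had overlapping groups at 451 ± 83.5 on TAT-2 arrays and 444 ± 62.8 on vector arrays (SD, n = 3 each) and a difference of 0.01.

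**Figure D2:**
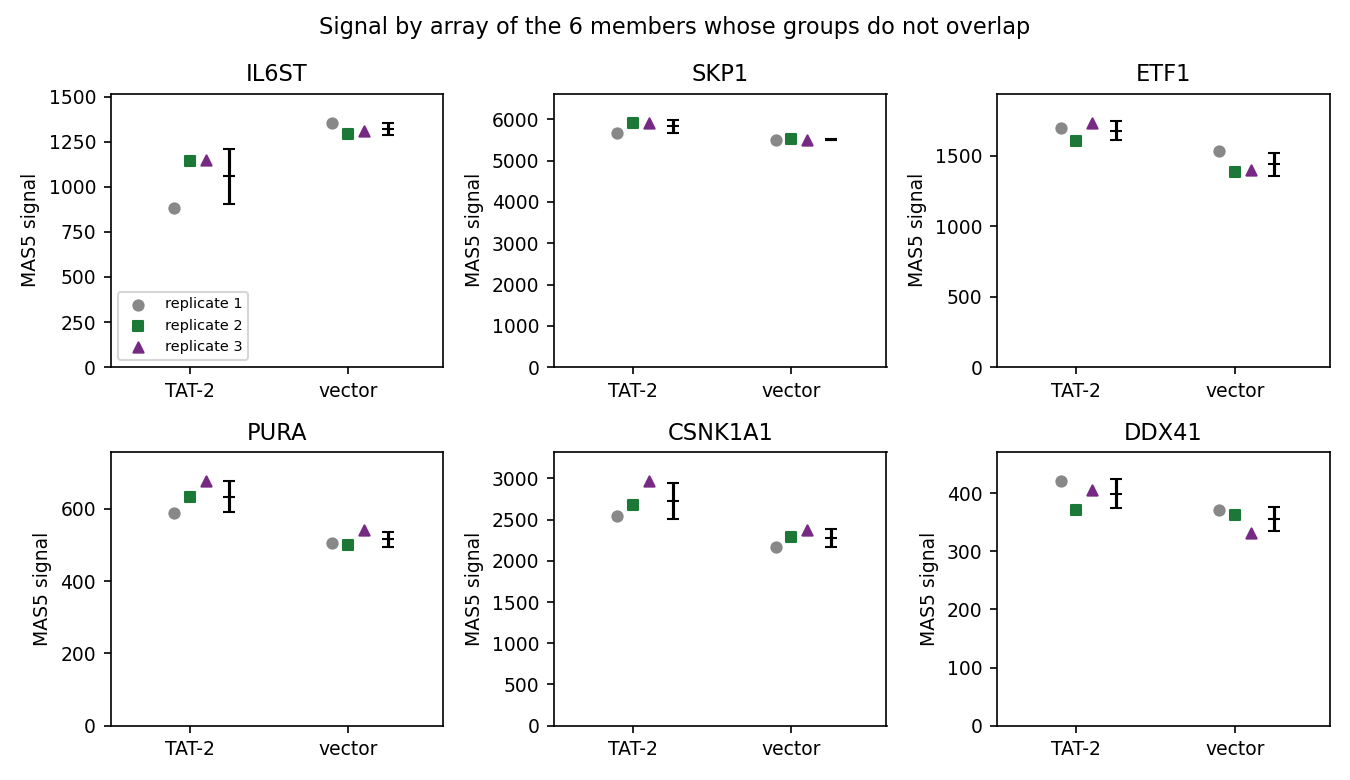
MAS5 signal by array, on axes from 0, of the 6 members whose groups do not overlap, with a symbol for each replicate number and the mean with its SD beside them (n = 3 per group). IL6ST is lower on every TAT-2 array, with replicate 1 the lowest at 883, and SKP1 parts its groups by the smallest fold of the 6, at a mean of 5826 on TAT-2 arrays against 5505 on vector arrays.

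ETF1, the factor that ends translation at stop codons (chr5:138506095-138543236), gave 1696, 1606 and 1734 on TAT-2 arrays and 1532, 1387 and 1397 on vector arrays. The groups stood apart, with a log2 difference of 0.22 ± 0.08 (SE) and a limma adjusted p of 0.558, and 0.0778 with the block. HSPA9, mitochondrial HSP70, starts 0.048 Mb further along and showed no such gap, at 1277 ± 96.6 on TAT-2 arrays and 1275 ± 202 on vector arrays (SD, n = 3 each). SKP1, the adaptor of SCF ubiquitin ligases (chr5:134148935-134176950), was among the brightest members, with 5658, 5915 and 5906 on TAT-2 arrays and 5505, 5512 and 5497 on vector arrays. Its vector arrays were nearly equal, and its difference of 0.08 ± 0.06 (log2, SE) was small. Of 3 further tested probe sets of SKP1, 1 shared that sign. Another, at 97.1 ± 8.35 on TAT-2 arrays and 114 ± 5.45 on vector arrays, was lower without overlap, at -0.20. DDX41, a DEAD-box helicase (chr5:177511577-177516961), gave 420, 372 and 405 on TAT-2 arrays and 371, 363 and 331 on vector arrays, where TAT-2 replicate 2 and vector replicate 1 nearly met. Its log2 difference was 0.16 ± 0.11 (SE), with a limma adjusted p of 0.828, and 0.294 with the block.

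The 6 tested genes of the DNA damage response went different ways. RAD17, which loads the checkpoint clamp (chr5:69369293-69414801), gave 285, 396 and 392 on TAT-2 arrays and 248, 336 and 296 on vector arrays. Its groups overlapped, replicate 1 being the lowest in both, and within each number the TAT-2 array was the higher, for a difference of 0.27 ± 0.16 (log2, SE; ± 0.08 with the block). UBE2B, a ubiquitin-conjugating enzyme of postreplication repair, was higher in each number too, by 0.18, 0.24 and 0.29, with limma adjusted p of 0.694, and 0.0621 with the block. That value belongs to a probe set ending in _s_at, which can read related sequences. Of 5 other tested probe sets 3 had the same sign. The only tested one without shared sequence was near the filter, at a signal of 18.2 ± 5.38 on TAT-2 arrays and 18.3 ± 4.94 on vector arrays (SD, n = 3 each). RAD1, a subunit of the checkpoint clamp on 5p, gave 629, 656 and 663 on TAT-2 arrays and 682, 685 and 618 on vector arrays. Its difference was -0.03, with a sign that changed between numbers. Of 4 other tested probe sets of RAD1 1 had the same sign. Among the positive ones, that at 305 ± 21.3 on TAT-2 arrays and 256 ± 11.1 on vector arrays was higher without overlap, by 0.24. The double-strand break genes XRCC4 and RAD50 were at -0.03 and -0.05. MSH3, of mismatch repair, changed sign between numbers, at 0.43, -0.40 and -0.29, for a mean of -0.08, and -0.34 without replicate 1. The 6 genes had a median of -0.03.

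Of 9 tested genes of cytokine receptors and signalling, 6 were above 0 and 3 below, beside 49.5% of all tested genes above 0. ERBIN, a scaffold that binds the receptor ERBB2 (chr5:65926575-66082546), gave 351, 472 and 493 on TAT-2 arrays and 443, 536 and 547 on vector arrays, lower in each number with overlapping groups. Its difference was -0.22 ± 0.15 (log2, SE), with a limma adjusted p of 0.847, and 0.120 with the block. MAP3K1, a kinase upstream of JNK and ERK and the nearest member to IL6ST, was at -0.15, and it too was negative in each number. APC, which scaffolds the destruction of beta-catenin, was at 0.14 and positive in each number, with 203 ± 17.5 on TAT-2 arrays and 183 ± 26.8 on vector arrays (SD, n = 3 each). TNFAIP8, induced by TNF, was at 0.19, with -0.01, 0.17 and 0.40 in the 3 numbers and 0.29 without replicate 1. On 5p TRIO was at 0.01 and PDCD6, a calcium-binding protein, at 0.03. Of 6 other tested probe sets of TRIO 2 shared its sign. Among the negative ones, that at 127 ± 5.09 on TAT-2 arrays and 167 ± 8.02 on vector arrays was lower without overlap, at -0.36. The 2 other tested probe sets of PDCD6 were negative, at -0.25 and -0.12. DAB2, a clathrin adaptor, was dim at 8.55 ± 0.764 on TAT-2 arrays and 7.76 ± 2.10 on vector arrays (SD, n = 3 each).

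The 11 tested genes of RNA binding, processing and translation had a median of 0.10, with 9 above 0, beside 49.5% of all tested genes. Besides PURA, ETF1 and DDX41, G3BP1, a core of stress granules, was positive in each number (0.05, 0.18 and 0.27). Of 6 other tested probe sets of G3BP1 2 had a positive mean and 4 a negative one, and 1 of the 4, at 456 ± 36.2 on TAT-2 arrays and 529 ± 13.7 on vector arrays (SD, n = 3 each), was lower without overlap. Positive in each number too were HNRNPAB, an RNA-packaging protein, at 0.12, and PAIP1, which binds the poly(A)-binding protein, at 0.10. PAIP1 lies on 5p at chr5:43526267-43557411 and gave 903, 787 and 868 on TAT-2 arrays and 809, 784 and 792 on vector arrays. Its groups overlapped, with TAT-2 replicate 2 lying among the vector arrays. Of 4 other tested probe sets of PAIP1 1 had the same sign, and the other 3 were negative in each number, 1 of them without overlap at -0.18. DROSHA, which cuts primary microRNAs, and MRPS30, of the mitochondrial ribosome, both on 5p, were at 0.04 each with mixed signs. NPM1, the nucleolar protein nucleophosmin, gave 6984 ± 379 on TAT-2 arrays and 7129 ± 737 on vector arrays (SD, n = 3 each). HNRNPH1, a splicing regulator, gave 5739 ± 399 on TAT-2 arrays and 5754 ± 196 on vector arrays. Both differences were within 0.03 of 0. Of 3 other tested probe sets of HNRNPH1 2 were negative in each number. They were at -0.17 and, lower without overlap, at -0.26. MATR3, of the nuclear matrix, had 1 probe set of its own, which gave 202, 106 and 61.6 on TAT-2 arrays against 118, 104 and 90.4 on vector arrays, and 9 more were annotated to several genes and not used.

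Chaperones showed little difference. CCT5, of the cytosolic chaperonin, was at 0.03, HSPA4, an HSP110 exchange factor, at 0.02 and HSPA9 at 0.01, each with mixed signs. CANX, calnexin of the endoplasmic reticulum, was at 0.12 and positive in each number. CANX lies between HNRNPH1 and SQSTM1 close to the end of 5q, and while CANX was at 0.12, HNRNPH1 was at -0.01 and SQSTM1 at -0.05. SQSTM1, the autophagy receptor p62, differed more between replicate numbers than between groups, with 848, 602 and 578 on TAT-2 arrays and 928, 573 and 615 on vector arrays. CAST, which encodes the calpain inhibitor calpastatin, was at 0.20, positive in each number (0.22, 0.26 and 0.13). All 4 of its other tested probe sets had a positive mean difference, but not all of them in each number. SKP2, the F-box protein that targets the cell cycle inhibitor p27, was at 0.03 with mixed signs.

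Genes of mitosis, the nuclear lamina and the cytoskeleton were above 0 in all 4 tested cases. All 4 lie on 5q, where 70.8% of the other tested genes were above 0. CENPH, of the kinetochore, was at 0.06 and LMNB1, lamin B1, at 0.08. HMMR, a spindle and hyaluronan-binding protein, was at 0.11 and KIF2A, a microtubule-depolymerising kinesin, at 0.17. HMMR alone among the 4 had no negative number. LMNB1, at 0.27, -0.15 and 0.13 in the 3 numbers, was at -0.01 without replicate 1, and HMMR was at -0.03 without vector replicate 1. KIF2A, at -0.03, 0.25 and 0.28, was at 0.27 without replicate 1. CYFIP2, of the WAVE actin regulators, was below the filter, at 19.5, 12.8 and 11.3 on TAT-2 arrays and 14.3, 2.48 and 2.21 on vector arrays. NIPBL, the cohesin loader on 5p (chr5:36876769-37066413), gave 577, 599 and 527 on TAT-2 arrays and 591, 581 and 538 on vector arrays, almost the same. BDP1, a subunit of the RNA polymerase III factor TFIIIB, was at 0.07, and at 0.15 without replicate 1. The other tested probe set of BDP1 was negative in each number and lower without overlap, at -0.28. It averaged 33.9 ± 7.65 on TAT-2 arrays and 44.1 ± 3.86 on vector arrays (SD, n = 3 each). GOLPH3, a Golgi protein on 5p (chr5:32124716-32174319), had the highest 5p difference, with 1402, 1158 and 1178 on TAT-2 arrays and 1300, 1063 and 1075 on vector arrays. Its replicate 1 was high in both groups, and the differences by number were nearly equal at 0.11, 0.12 and 0.13, for a mean of 0.12 ± 0.12 (log2, SE; ± 0.06 with the block). COL4A3BP, the ceramide transfer protein now named CERT1, was at -0.14, and PAM, which amidates peptide hormones, also at -0.14, both negative in each number. PAM was at -0.05 without replicate 1. HSD17B4, of peroxisomal beta-oxidation, was at 0.04.

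Further probe sets of the same genes were compared with the brightest one. On 5q, 58 of 75 further tested probe sets had its sign, and 17 of 26 members that had such probe sets were the same in all of them. On 5p it was 11 of 27 probe sets, with 1 of 9 members the same in all. Probe sets of a gene are read on the same arrays and are not replicates.

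The other tested genes of the chromosome, far more numerous, also had a higher median on 5q than on 5p. The 424 other 5q genes had a median of 0.10, with 0.08, 0.10 and 0.12 in replicates 1, 2 and 3, and 300 of them were above 0. The 81 other 5p genes had a median of 0.01, with 0.02, 0.04 and 0.04, and 46 were above 0. The median on 5q exceeded that on 5p by 0.06, 0.06 and 0.08 in the 3 numbers. limma called 0 of these 505 genes, beside 0.0576% of all tested genes, and 60 lay at an unadjusted p under 0.05, beside 9.38%. The blocked fit called 35 (30 higher, 5 lower), beside 6.96% of all tested genes. Of the 35, 28 higher and 4 lower genes lay among the 424 on 5q, beside 3.5% of all tested genes called higher and 3.46% called lower. With the block and without the intensity trend limma called 0 of the 505, and 0 of all 12151 tested genes. On replicates 2 and 3 alone the block called 21 of the 505, beside 486 of all 12151. The chromosome was singled out with this contrast known, and the shift of its genes was given no test.

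**Figure D3:**
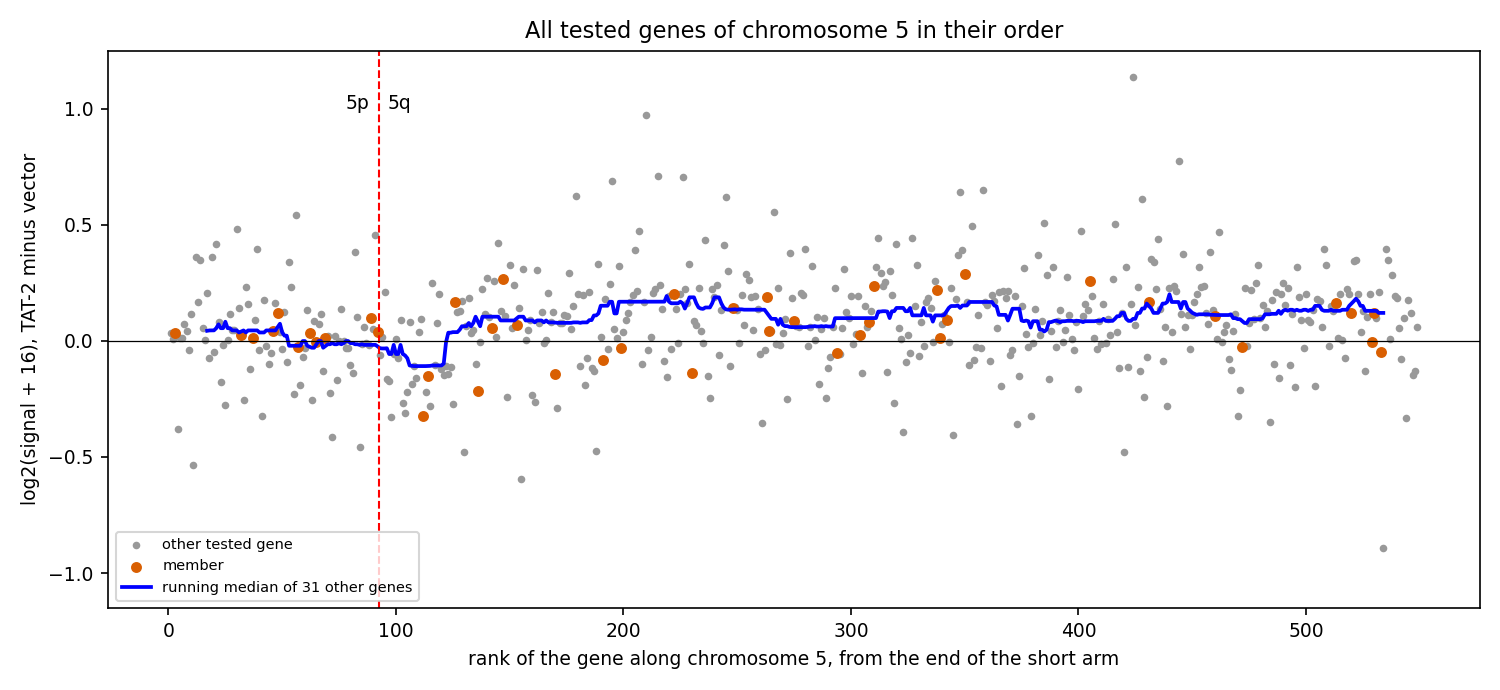
The TAT-2 minus vector difference, in log2(signal + 16), of all tested genes of chromosome 5 against their rank from the end of the short arm, members in orange and others in grey, with a running median of 31 other genes. The running median lies near 0 on 5p, falls below 0 at the start of 5q and stays above 0 for most of the rest of 5q.

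Along the chromosome, the median was below 0 just past the centromere on 5q and above 0 further out. In windows of 20 Mb, with that of the centromere split at the arm boundary of 48 Mb, the other genes had medians of 0.04 from 0 to 20 Mb (40 genes), -0.003 from 20 to 40 Mb (22 genes) and -0.01 from 40 to 48 Mb (19 genes, a thin window). From 48 to 60 Mb, the first part of 5q, the 25 other genes had a median of -0.07, negative in each number (-0.17, -0.11 and -0.04), and 10 of them were above 0. IL6ST and MAP3K1 lie in that stretch, and 6 of its 25 other genes were lower without overlap and 0 higher, beside 7.83% and 7.87% of all tested genes. All later windows were above 0. Their medians were 0.08 from 60 to 80 Mb (63 genes), 0.18 from 80 to 100 Mb (36 genes), 0.14 from 100 to 120 Mb (33 genes), 0.10 from 120 to 140 Mb (77 genes), 0.11 from 140 to 160 Mb (98 genes), 0.13 from 160 to 180 Mb (79 genes) and 0.06 beyond (13 genes, thin). Each of these later windows was above 0 in all 3 numbers. The window from 80 to 100 Mb was the highest, and 12 of its 36 genes were higher without overlap and 0 lower, beside 7.87% and 7.83% of all tested genes. The windows were not tested, and these were picked for their medians. Its 3 tested members did not all follow it, with CAST at 0.20, XRCC4 at -0.03 and MSH3 at -0.08.

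On single arrays, the level of an arm was taken as the median over its genes of the deviation from each gene's mean over 6 arrays, less the same over the 11602 tested genes of other chromosomes. For the other 5q genes it was -0.01, 0.06 and 0.08 on TAT-2 arrays and -0.09, -0.04 and -0.03 on vector arrays, and the groups did not overlap. The replicate 1 array was the lowest of its group in both. For the other 5p genes it was -0.05, 0.04 and 0.06 on TAT-2 arrays and -0.06, -0.01 and 0.02 on vector arrays, which overlapped. The 33 5q members overlapped as well, with -0.04, 0.06 and 0.11 on TAT-2 arrays and -0.08, -0.004 and -0.04 on vector arrays. The part of replicate 1's lower level in these values was not tested.

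**Figure D4:**
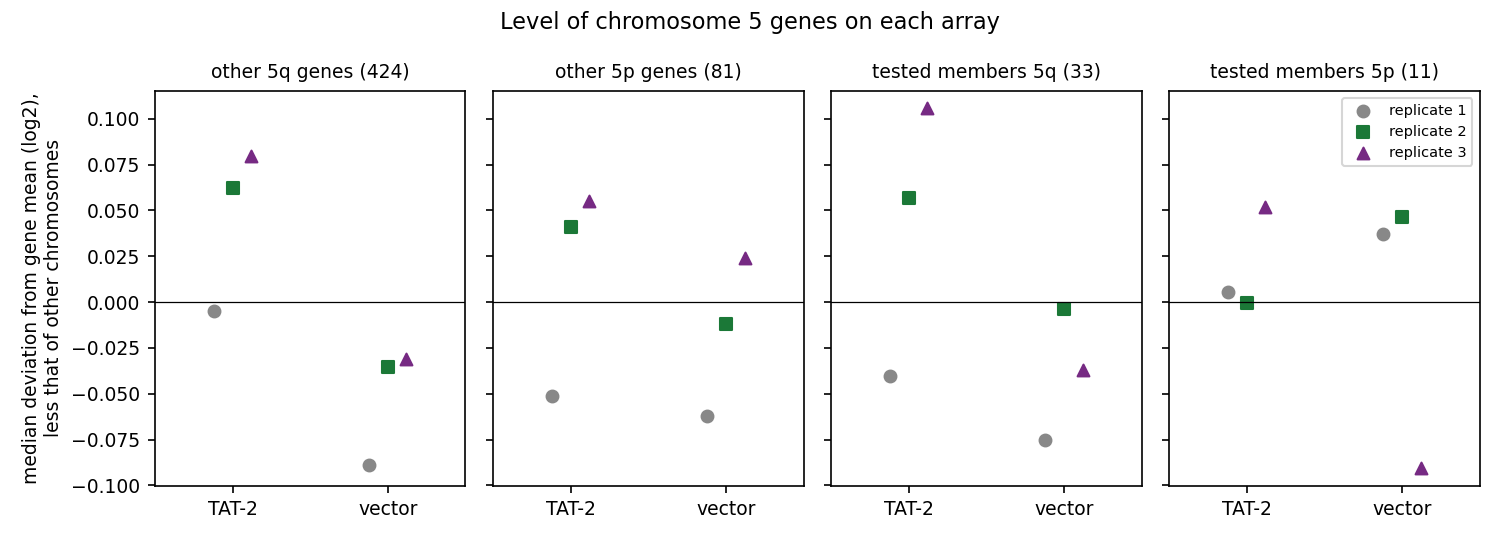
Level of 4 sets of chromosome 5 genes on each array, as the median log2 deviation from each gene's mean less that of other chromosomes, with the number of genes in parentheses and a symbol for each replicate number. Of the 4 sets, the other 5q genes alone show no overlap of the groups, at -0.01 to 0.08 on TAT-2 arrays and -0.09 to -0.03 on vector arrays.

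Set beside other chromosomes, chromosome 5 as a whole had a median of 0.08 and ranked 2 from the top of 23. The median of its other 5q genes was above that of 21 of the other 22 chromosomes, all but chromosome 10 at 0.14. These ranks did not hold in each replicate number. In replicate 1 chromosome 22, at 0.11, was above the other 5q genes at 0.08. Chromosome 5 as a whole was at 0.05, 0.08 and 0.12 in replicates 1, 2 and 3, and chromosome 22 at 0.11, 0.09 and 0.08. Chromosome 19, at 0.07, was also above chromosome 5 in replicate 1. The lowest was chromosome 20 at -0.21. Chromosomes 10 and 20 thus lay further from 0 than the other 5q genes, and the size of the shift was not tested against that of other chromosomes. Other chromosomes were not split by arm, so an arm is set here beside whole chromosomes.

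**Figure D5:**
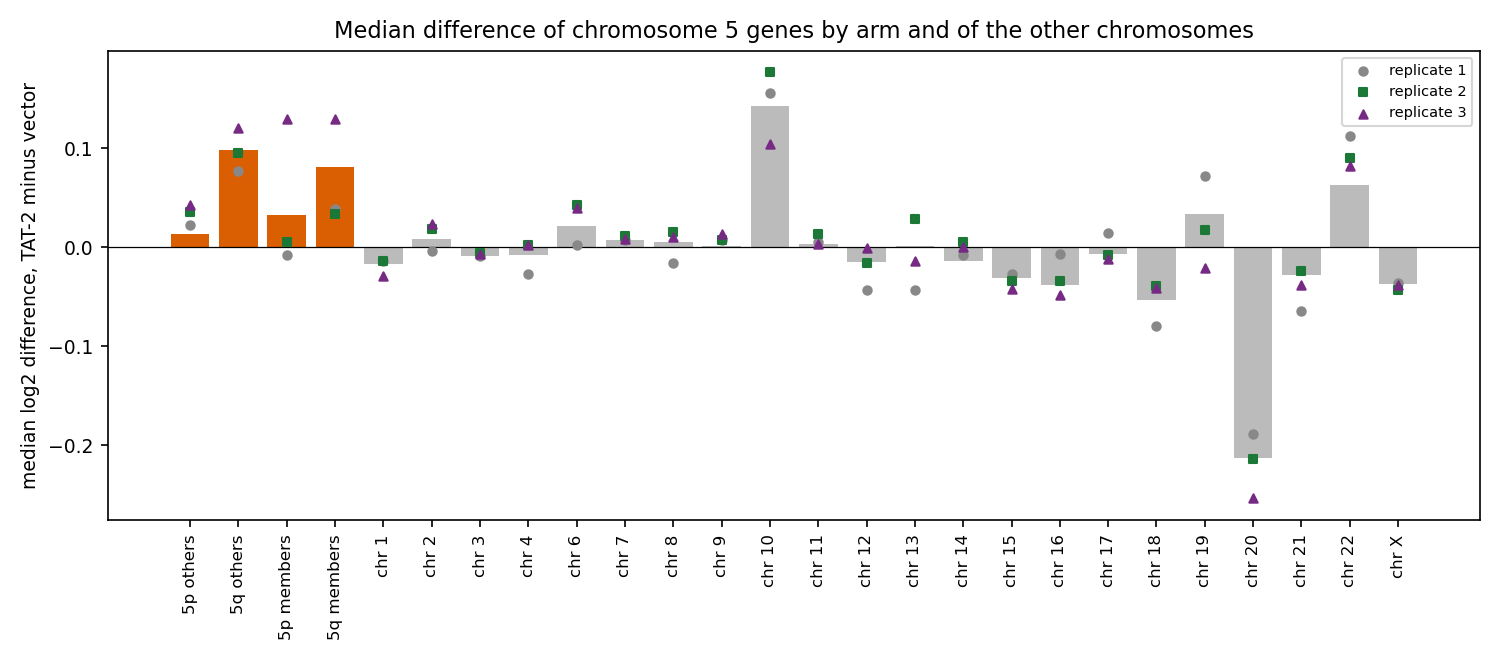
Median TAT-2 minus vector difference, in log2(signal + 16), of chromosome 5 genes by arm (orange, members and other genes apart) and of each other chromosome (grey), with a symbol for each replicate number. The other 5q genes stand at 0.10 with all 3 numbers above 0, and chromosome 10 at 0.14 and chromosome 20 at -0.21 lie further from 0.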

How the data were processed

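Per the submitters' processing notes the authors made the values with MAS5 (version not given in the sources used). The deposited values are linear intensities, 1 per probe set and array, and each array's mean between percentiles 2 and 98 was 100 within rounding (99.99). The table holds 54675 probe sets with 62 controls among them. A single symbol was annotated to 41097, of which 41043 were matched by identifier to the RefSeq table of GRCh38.p14, which gave positions.

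From these, log2(signal + 16) was computed. Probe sets were tested where their mean reached the median of non-control probe sets (4.96, a signal of 15.2), which left 27307. limma 3.58.1 in R 4.3.3 (lmFit, eBayes with trend) was fitted with group as the only term, p-values were adjusted by Benjamini-Hochberg over all tested probe sets at 0.05, and each gene was counted by its brightest probe set. The fit was tested on simulated data. The number of arrays limits the precision.

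To check whether replicate numbers pair arrays, each array's deviation from its group mean was correlated with that of the same number in the other group (0.64, 0.39 and 0.25). Each is over 0.1, so the replicate block is printed where it changes a call, and for some other genes. Differently numbered arrays gave up to 0.32, above the 0.25 of replicate 3. This check therefore cannot tell whether replicates 2 and 3 pair by number. The members, role groups and windows were chosen with earlier results of these data known. Every member is named, with the signals of each array for members without overlap of groups, called members and the 2 highest and lowest of each arm. Of other chromosome 5 genes the 5 largest rises and falls without overlap are named. Alternatives were the pseudocount, filter, normalization, trend, block, batch of replicate 1, probe set choice and arrays left out, and, chosen after seeing the data, the adjustment over genes and combinations with the block.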

Additional observations from a re-analysis of the deposited data

How the results depend on the processing

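The medians of the 5p and 5q members moved by less than their SD over replicate numbers (0.08 and 0.05) under every alternative run, but single arrays moved them by over 1.5 times. For the 5p members that SD is larger than the median itself (0.03), so even a turn of sign counts as unmoved. On all 6 arrays the block, trend, batch factor and adjustment over genes cannot change a median. With arrays left out the 5q members' median was 0.0448 (without TAT-2 replicate 3) to 0.0965, and that of the 5p members -0.00286 (without vector replicate 3) to 0.0696 (without vector replicate 2). With all probe sets of a gene averaged, that of the 5p members was -9.12e-05. The median of other 5q genes (0.098) was 0.0715 with a pseudocount of 64, 0.0585 with no filter, which was also run with the block, and 0.088 to 0.117 with arrays left out. That of other 5p genes (0.0138) was 0.0290 with the filter at percentile 70, 0.0248 with quantile normalization, 0.0301 with probe sets averaged and 0.0271 with probe sets of shared sequence left out. The last 3 were the same with the block. It was -0.0103 to 0.0440 with arrays left out, below 0 without TAT-2 replicate 3 or vector replicate 2, and 0.0258 on replicates 2 and 3 alone, with or without the block. No alternative turned the median of other 5q genes.

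Over all genes limma called 7, and 11 with quantile normalization, 20 with array medians centred, 4 without the trend, 29 with probe sets averaged, 31 without shared sequence and 40 when adjusted over genes. With arrays left out the count was 0 to 196. It was 0 without TAT-2 replicate 2 or 3 or vector replicate 2 or 3, with 779 to 905 genes at an unadjusted p under 0.05. Members called stayed at 0 in all of these. The replicate block called 846 genes and 2 members, PURA and CSNK1A1, and the batch factor of replicate 1 called 747 and the same 2. With the block it was 0 genes without the trend (2042 at an unadjusted p under 0.05), 486 genes and 0 members on replicates 2 and 3, and 270 genes and 0 members without a filter. It was 1021 genes and 4 members adjusted over genes, 966 and 5 with quantile normalization, 775 and 2 (PURA and IL6ST) with probe sets averaged, and 571 and 1 (PURA) without shared sequence. The causes were not tested. Of 44 members, 18 kept their sign under every alternative run (14 above 0, 4 below), PURA, CSNK1A1, ETF1 and IL6ST among them. UBE2B and SKP1 did not. Low signal limits DAB2 and CYFIP2, which were below the filter.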

Other observations

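Among the 505 other tested genes of chromosome 5, the 5 with the largest positive difference without overlap of the groups all lay on 5q. ANXA6, a calcium-dependent membrane-binding annexin, gave 83.9 ± 13.9 on TAT-2 arrays and 30.02 ± 11.1 on vector arrays (SD, n = 3 each), a log2 difference of 1.14 ± 0.21 (SE). For ANXA6 the limma adjusted p was 0.120 by group alone and 0.00138 when the block was added. MCTP1, a C2-domain membrane protein, was at 0.71 (122 ± 1.52 on TAT-2 arrays and 68.6 ± 3.15 on vector arrays), with limma adjusted p of 0.104, and 0.00497 with the block. ADGRV1, an adhesion receptor, NIPAL4, a magnesium transporter of keratinocytes, and SSBP2, which binds single-stranded DNA, were at 0.97, 0.78 and 0.69. limma called each with the block alone. ADGRV1 averaged 40.9 ± 10.3 on TAT-2 arrays and 14.4 ± 12.2 on vector arrays (SD, n = 3 each). Its vector mean was under the filter signal of 15.2.

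Among genes without overlap of the groups, the 5 with the largest negative difference lay on both arms. MAP1B, a microtubule-associated protein, was at -0.60 (29.5 ± 2.59 on TAT-2 arrays and 53.1 ± 8.89 on vector arrays) and ADAMTS6, a secreted metalloprotease, at -0.48 (76.2 ± 6.99 on TAT-2 arrays and 112 ± 4.09 on vector arrays), both on 5q. limma called these with the block alone, with adjusted p of 0.0469 for MAP1B and 0.0399 for ADAMTS6. THBS4, a thrombospondin of 5q, and ANXA2R-AS1 and AHRR of 5p, the repressor of the aryl hydrocarbon receptor, were at -0.48, -0.46 and -0.38 and were called by neither limma fit. THBS4 averaged 15.0 ± 4.05 on TAT-2 arrays, under the filter signal of 15.2, and 27.0 ± 4.92 on vector arrays (SD, n = 3 each). On the log2(signal + 16) scale the differences of dim genes named here are smaller than on log2 of the signal alone. These genes were picked for the size of their differences, which can overstate them, and low signal limits how well they are known.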
